A study of Mus musculus with 9 samples.

Results

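The enzymes of cholesterol synthesis were examined in the livers of 9 male offspring. The 3 groups, of 3 mice each, were conceived naturally (NC), by in vitro fertilization with fresh embryos (IVF) or with frozen-thawed embryo transfer (FET). The genes were chosen by name as pathway members, with earlier results of these data known, and matched by Ensembl identifier through the gene annotation. They were Hmgcs1, Mvk, Mvd, Idi1, Fdps, Fdft1, Sqle, Lss and Dhcr7, 9 of the 55335 genes in the deposited table. All 9 were detected, and 6 of them reached the mean of 1 FPKM over all mice that was required for testing.

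All mice are labelled B6D2F2 and were fed normal chow, 20 weeks old and fasted for 4 h before the liver was taken. NC mice came from mating and IVF mice from fresh embryos of B6D2F1/J gametes, at the cleavage stage with a pair of cells, transferred to pseudopregnant ICR females. FET mice came from such embryos that had been slowly frozen in propanediol, kept in liquid nitrogen, thawed and transferred to ICR females in the same way. IVF and FET mice thus shared fertilization in vitro, transfer and an ICR recipient, whereas NC mice had none of them. The NC mice carry the numbers 1, 5 and 6 in the labels, and the mice of both other groups carry 2, 3 and 4. A sheet number in the labels sets NC mice 5 and 6 apart from all other mice. The labels do not say whether the mice of a group shared a litter, so p-values measure only the spread between these mice. Chow and male sex are stated in the text of the paper and not in the labels.

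The estimated depth was 6620000, 11960000 and 13330000 mapped fragments in NC mice 1, 5 and 6, between 3880000 and 8430000 in the IVF group, and between 2020000 and 2930000 in the FET group. These depths are approximate, because 43.3% to 51.8% of the low values in a library lay within 2% of a whole number of fragments, against 18.0% by chance. A multiple of a depth can fit the spacing about as well, and the lower depth was then taken. An error in that choice for a library would change its rank and its fragment numbers. Every FET library had a lower estimate than every NC and every IVF library, and depth and group cannot be told apart in either comparison with FET. The number of genes above 0 was 8071 to 13322 in FET, 15074 to 19360 in IVF and 12340 to 19066 in NC mice. Nuclear protein-coding genes held between 4.4% (IVF mouse 2 and FET mouse 4) and 29.3% (IVF mouse 4) of the summed FPKM, while 3 abundant non-coding entries held 3.5% to 61.9%. The hepatocyte marker list had all 12 of its genes at a mean of at least 1 FPKM. Per 1000000 of the nuclear protein-coding FPKM of a library, its sum was 215000 to 233000 in NC, 144000 to 240900 in IVF and 170200 to 210200 in FET mice. The Kupffer cell list of 8 genes, 5 of them at a mean of at least 1 FPKM, summed on that scale to 140.0 to 204.9 in NC, 133.7 to 222.8 in IVF and 220.0 to 862.4 in FET mice. Its members differed. Clec4f was 370.2, 56.3 and 48.8 in FET mice 2, 3 and 4 against 57.1 to 118.2 in NC mice. Cd5l was 402.9, 61.7 and 119.8 against 27.5 to 40.1. The means of Vsig4, Adgre1, Cd68, Timd4 and Marco were higher in FET than in NC mice, and that of Csf1r was lower (14.0 against 15.2). The pancreatic acinar list had 1 of 6 genes at a mean of at least 1 FPKM and 1 at 0 in all mice. It summed to 16.2 to 34.9 in NC, 10.7 to 28.0 in IVF and 39.7 to 50.4 in FET mice. Most of each sum was Cela1 alone, with 13.6 to 29.3 in NC, 9.30 to 28.0 in IVF and 30.5 to 50.4 in FET mice. Ctrb1 and Cpa1 were above 0 only in NC mice and Prss2 only in IVF, while Pnlip was above 0 in all 3 groups. The sums of the endothelial, stellate, cholangiocyte, blood and adipocyte lists overlapped between NC and FET mice. On the scale per 1000000 the cholangiocyte sum was 39.5 to 44.8 in IVF against 68.2 to 123.0 in NC mice. The blood sum was 1689 to 2259 against 2431 to 9066. Both sums were lower in all IVF than in all NC mice, as were 11.3% of tested genes on this scale. The cholangiocyte sum rested mainly on Spp1, with 14.4 to 31.0 in IVF and 59.4 to 100.7 in NC mice. Mean Sox9, Epcam and Krt7 were higher in IVF (4.85, 1.85 and 1.74) than in NC mice (2.75, 1.36 and 1.54). Mean Krt19 was lower (8.59 against 9.05), and Cftr was at 0. The part of cell make-up and depth in the results was not tested. In bulk liver, fewer cells of a type and less RNA per cell cannot be told apart.

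Cholesterol is built from acetyl-CoA through the mevalonate pathway. Hmgcs1 makes HMG-CoA, Mvk and Mvd carry mevalonate to isopentenyl diphosphate, Idi1 isomerizes it, and Fdps joins the units to farnesyl diphosphate, from which the isoprenoid branch also draws. Fdft1 commits farnesyl diphosphate to squalene, Sqle and Lss turn squalene into lanosterol, and Dhcr7 reduces 7-dehydrocholesterol to cholesterol at the end. In liver these genes are known as targets of SREBP-2 (Srebf2), which Scap escorts and Insig1 and Insig2 hold back when sterols are plentiful.

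RefSeq promoter windows of GRCm38.p6, from 250 bases before to 50 after a gene's start, were found for 6 of the 9 genes (Hmgcs1, Mvk, Mvd, Idi1, Lss and Dhcr7), and not for Fdps, Fdft1 and Sqle. The windows of the 4 tested genes among them are shown because Hmgcs1 and Dhcr7, near the start and the end of the pathway, had unlike patterns across the groups, and Mvd and Idi1 stand between them. Of 3 windows for Dhcr7, the one that holds a CCAAT match is given. Capitals mark matches on either strand to the letters TCACNCCAC, a form of the sterol regulatory element, and to CCAAT, read as ATTGG on the opposite strand. The marked matches do not overlap each other.
Hmgcs1, chr13:119690101-119690400, plus strand: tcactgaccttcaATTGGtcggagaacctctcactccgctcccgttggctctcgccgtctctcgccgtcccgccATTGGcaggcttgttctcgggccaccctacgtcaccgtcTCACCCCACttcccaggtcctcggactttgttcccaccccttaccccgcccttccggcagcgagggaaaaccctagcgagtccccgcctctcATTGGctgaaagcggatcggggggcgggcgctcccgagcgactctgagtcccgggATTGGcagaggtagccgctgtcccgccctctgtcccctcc
Mvd, chr8:122443373-122443672, minus strand: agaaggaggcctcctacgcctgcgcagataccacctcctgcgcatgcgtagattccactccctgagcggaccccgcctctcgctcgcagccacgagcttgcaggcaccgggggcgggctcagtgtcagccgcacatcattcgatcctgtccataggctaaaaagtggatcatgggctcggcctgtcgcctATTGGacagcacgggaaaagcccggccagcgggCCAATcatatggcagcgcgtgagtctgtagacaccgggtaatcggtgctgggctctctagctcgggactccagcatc
Idi1, chr13:8885356-8885655, plus strand: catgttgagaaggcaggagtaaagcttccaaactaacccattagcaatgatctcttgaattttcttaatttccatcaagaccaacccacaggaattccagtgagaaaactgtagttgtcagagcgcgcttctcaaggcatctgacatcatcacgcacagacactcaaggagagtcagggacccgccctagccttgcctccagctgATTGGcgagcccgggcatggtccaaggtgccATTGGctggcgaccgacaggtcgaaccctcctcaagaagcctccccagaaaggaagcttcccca
Dhcr7, chr7:143829964-143830263, plus strand: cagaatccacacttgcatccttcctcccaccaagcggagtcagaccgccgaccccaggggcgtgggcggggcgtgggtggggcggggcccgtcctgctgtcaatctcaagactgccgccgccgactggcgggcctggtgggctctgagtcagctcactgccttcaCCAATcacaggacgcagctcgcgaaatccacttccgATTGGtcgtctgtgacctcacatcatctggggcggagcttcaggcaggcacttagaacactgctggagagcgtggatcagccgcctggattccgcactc
The sterol element letters were found only in the Hmgcs1 window among the windows of these 6 genes, with the first base at -137 from the start. They occur in 1.24% of all 32817 windows, and in at least 1 window of 1.44% of the 26994 genes with windows. CCAAT was found in at least 1 window of each of the 6 genes, as for 41.0% of all genes, and in 37.4% of all windows. The GC box letters GGGCGG, not in capitals here, were also present in 1 or more windows of each of the 6 genes. The same holds for 38.2% of all genes, and for 35.6% of all windows. A match is a description of these letters and not a site.

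Dhcr7, which encodes 7-dehydrocholesterol reductase, was lower in the FET group than in the NC group, and among the 6 tested enzymes it alone passed the adjusted threshold. Dhcr7 (ENSMUSG00000058454, chromosome 7 from 143823145 to 143848410, GRCm38) had 4.88, 8.61 and 9.04 FPKM in NC mice 1, 5 and 6. It had 0.748, 2.98 and 0.217 FPKM in IVF mice 2, 3 and 4, and 0.493, 0.478 and 0 in FET mice 2, 3 and 4. All NC mice lay above all IVF and FET mice, while the latter groups overlapped. The NC mean was 7.51 ± 2.29 FPKM (SD, n = 3). The IVF mean was 1.32 ± 1.47 and the FET mean 0.324 ± 0.280 (both SD, n = 3). The log2 fold change of FET against NC was -2.67 (standard error 0.61, limma adjusted p = 0.0320), on the log2(FPKM + 1) scale. Over all tested genes 0.237% passed the same threshold, 16 of 6755. For IVF against NC the Dhcr7 value was -2.02 (standard error 0.61, limma adjusted p = 0.411), and for FET against IVF it was -0.65 (standard error 0.61, limma adjusted p = 1).

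The call for Dhcr7 depended on the processing. The direction was negative under all 15 alternatives of this comparison, with log2 fold changes from -4.50 to -2.12, but the gene stayed past the threshold under 2 of them, without NC mouse 1 and without FET mouse 2. The limma adjusted p was 0.0529 with median-ratio scaling, 0.0696 after rescaling to nuclear protein-coding genes, 0.096 with a pseudocount of 0.1, 0.128 with only both groups in the model and 0.434 with no filter on low values. It was 0.0985 with quantile normalization, 0.181 and 0.205 without NC mice 5 and 6, and 0.15 and 0.142 without FET mice 3 and 4. With NC mouse 1 as the only control the log2 fold change was -2.18; the spread then came from the other groups, and the adjusted p of 1 says little with a single control. The Dhcr7 values equal about 90.9, 290.0 and 339.0 fragments in NC mice 1, 5 and 6, and about 2.80, 3.77 and 0 in FET mice 2, 3 and 4, taking the length of the longest coding transcript. The NC mean would give about 42.7, 59.2 and 62.0 fragments in those FET libraries. These fragment numbers rest on the estimated depths and need not be whole, so they are a guide to scale only.

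**Figure D1:**
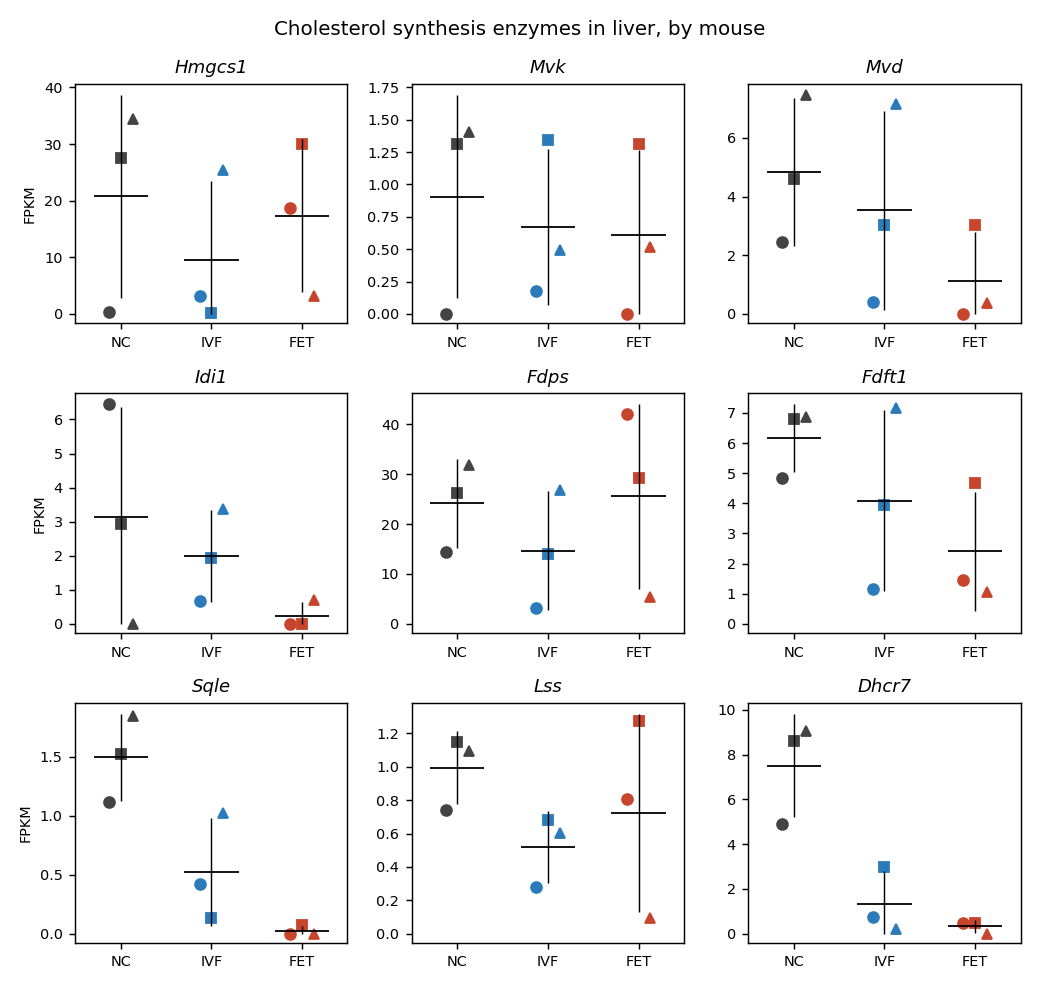
FPKM (vertical axis) of the 9 enzymes in each mouse, grouped as NC (grey), IVF (blue) and FET (red). Symbols are mice, horizontal lines are means and vertical lines 1 SD, stopped at 0. The Dhcr7 and Sqle values of the 3 NC mice lie above those of all other mice.

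Sqle, squalene epoxidase (ENSMUSG00000022351, chromosome 15 from 59315077 to 59331192), was at the lower end of detection and was not tested. It had 1.11, 1.52 and 1.85 FPKM in NC mice, 0.418, 0.129 and 1.02 in IVF mice 2, 3 and 4, and 0, 0.0742 and 0 in FET mice. No groups overlapped, with NC above IVF and IVF above FET. The lowest IVF value, in mouse 3, equals about 1.6 fragments. In the FET libraries 1 fragment equals 0.124 to 0.179 FPKM of Sqle, so the order of IVF and FET lies at the limit of detection. Of all 27411 detected genes, 10.6% were lower in all FET than in all NC mice, 4.51% in all IVF than in all NC mice and 4.18% in all FET than in all IVF mice. Without a filter on low values, the log2 fold change of FET against NC was -1.27 (standard error 0.30, limma adjusted p = 0.493) and that of IVF against NC was -0.74 (standard error 0.30, limma adjusted p = 0.717). The NC mean of 1.49 FPKM would give about 8.32, 11.5 and 12.1 fragments in FET mice 2, 3 and 4, whose values equal about 0, 0.573 and 0; a value above 0 that comes out below 1 fragment shows how rough the conversion is.

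Fdft1, squalene synthase (ENSMUSG00000021273, chromosome 14 from 63145150 to 63179578), had 4.85, 6.79 and 6.85 FPKM in NC mice. It had 1.15, 3.94 and 7.15 in IVF and 1.47, 4.69 and 1.07 in FET mice. The FET values lay below all NC values, whereas IVF overlapped both groups. The log2 fold change of FET against NC was -1.21 (standard error 0.69, limma adjusted p = 0.491), and -0.76 after rescaling to nuclear protein-coding genes. Mvd, mevalonate diphosphate decarboxylase (ENSMUSG00000006517, chromosome 8 from 122433601 to 122443422), had 2.44, 4.59 and 7.48 FPKM in NC, 0.417, 3.04 and 7.15 in IVF and 0, 3.04 and 0.361 in FET mice. Its log2 fold change of FET against NC was -1.63 (standard error 0.67, limma adjusted p = 0.324), and the groups overlapped. Idi1, isopentenyl diphosphate isomerase (ENSMUSG00000058258, chromosome 13 from 8885501 to 8892451), had 6.44, 2.94 and 0 FPKM in NC, 0.665, 1.93 and 3.37 in IVF and 0, 0 and 0.693 in FET mice. With 3 mice at 0 in 2 groups, the value was -1.37 (standard error 0.63, limma adjusted p = 0.379). It was -0.74 without NC mouse 1, -2.18 without NC mouse 6 and -2.64 with NC mouse 1 as the only control.

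For Hmgcs1 and Fdps, the most abundant of these transcripts per length, the groups overlapped in FPKM in every comparison. Hmgcs1, the HMG-CoA synthase of the cytosol (ENSMUSG00000093930, chromosome 13 from 119690379 to 119708260), had 0.374, 27.5 and 34.4 FPKM in NC mice 1, 5 and 6. It had 3.21, 0.145 and 25.5 in IVF and 18.8, 30.1 and 3.23 in FET mice. NC mouse 1 and IVF mouse 3 stood far below the other mice of their groups, so the spread within groups was larger than the differences between them. The log2 fold change of FET against NC was 0.30 (standard error 1.02, limma adjusted p = 0.933), and it was -1.21 without NC mouse 1 and -0.29 without FET mouse 3. Fdps, farnesyl diphosphate synthase (ENSMUSG00000059743, chromosome 3 from 89093588 to 89101959), had 14.4, 26.2 and 32.0 FPKM in NC, 3.16, 14.0 and 26.9 in IVF and 42.1, 29.2 and 5.47 in FET mice. Its value of -0.24 (standard error 0.96, limma adjusted p = 0.948) turned to 0.35 after rescaling to nuclear protein-coding genes.

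Mvk, mevalonate kinase (ENSMUSG00000041939, chromosome 5 from 114444269 to 114460591), and Lss, lanosterol synthase (ENSMUSG00000033105, chromosome 10 from 76531588 to 76557138), were below the testing level. Mvk had 0 to 1.41 FPKM in NC, 0.180 to 1.34 in IVF and 0 to 1.31 in FET mice. Lss had 0.744 to 1.15 FPKM in NC, 0.277 to 0.681 in IVF and 0.0964 to 1.27 in FET mice. In FPKM Lss was lower in all IVF than in all NC mice, as were 4.51% of all detected genes, but after rescaling to the nuclear protein-coding FPKM the groups overlapped, with 6.98 to 8.32 per 1000000 in NC and 2.63 to 7.07 in IVF mice. The Mvk groups overlapped.

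Across the tested enzymes, 5 of 6 had a negative log2 fold change in FET against NC, with a median of -1.29. Over all tested genes 74.4% were negative and the median was -0.46. After median-ratio scaling, quantile normalization or rescaling to nuclear protein-coding genes 4 of 6 were negative, since Fdps turned, with medians from -0.97 to -0.83, where 57.6%, 49.8% and 53.4% of all tested genes were negative in turn. An unadjusted limma p under 0.05 was found for Mvd, Idi1 and Dhcr7, all lower, where 10.1% of all tested genes were lower at that level. With median-ratio scaling, quantile normalization and rescaling the 3 such enzymes were Mvd, Fdft1 and Dhcr7, where 11.3%, 8.97% and 9.52% of all genes were lower at that level. The number was 1 (Dhcr7) without FET mouse 2, where 7.18% of all genes were lower at that level. It was 2 without NC mice 1, 5 and 6 in turn (12.5%, 4.90% and 4.23% of genes) and without FET mouse 4 (6.38%), and 3 without FET mouse 3 (12.8%). Dhcr7 was among them each time. In IVF against NC all 6 were negative with a median of -0.84, against 68.9% negative and a median of -0.25 over all genes. Without IVF mouse 2 the median was -0.20 with 4 of 6 negative, where the median of all genes was 0.22 and 36.2% were negative. Under the 3 other scalings all 6 stayed negative, with medians of -0.52, -0.57 and -0.61, against 50.4%, 50.8% and 55.8% of all genes. Of the 6, 0 passed the adjusted threshold in limma, which 0.0592% of genes did. With all mice, Dhcr7 alone was lower at an unadjusted p under 0.05, as were 2.86% of genes, and without NC mouse 1 Hmgcs1 and Dhcr7 were, as were 5.18% of genes. The single values were -1.15 for Hmgcs1, -0.60 for Mvd, -0.15 for Idi1, -0.996 for Fdps and -0.68 for Fdft1, each with a limma adjusted p of 1. In FET against IVF 4 of 6 were negative with a median of -0.59, against 65.4% negative and a median of -0.20 over all genes. Under the 3 other scalings 4 of 6 were negative each time, with medians of -0.65, -0.44 and -0.55, where 59%, 49.2% and 48.6% of all genes were negative. Leaving out 1 mouse moved the median of the enzymes, which was -0.26 without IVF mouse 4 (38.1% of genes negative), -0.30 without IVF mouse 3 (59.2%), -0.35 without FET mouse 4 (46.2%) and -0.90 without IVF mouse 2 (84.8%). With all mice, 0 enzymes passed the adjusted threshold in this comparison, which 0.0888% of genes did in limma, and 0 were lower at an unadjusted p under 0.05, as were 2.95% of genes. After rescaling to nuclear protein-coding genes Fdps was higher at that level (1.06, limma adjusted p = 0.521), as were 314 of 6755 genes. At that level Mvd and Idi1 were lower without IVF mouse 2 (11.9% of genes), Mvd without FET mouse 3 (5.27%) and Idi1 without FET mouse 4 (2.01%), while Hmgcs1 was higher without IVF mouse 4 (1.54% of genes higher). The values with all mice were 1.45 for Hmgcs1, -1.03 for Mvd, -1.22 for Idi1, 0.76 for Fdps and -0.52 for Fdft1. Both comparisons with the NC group share its mice, as both comparisons with FET share theirs.

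**Figure D2:**
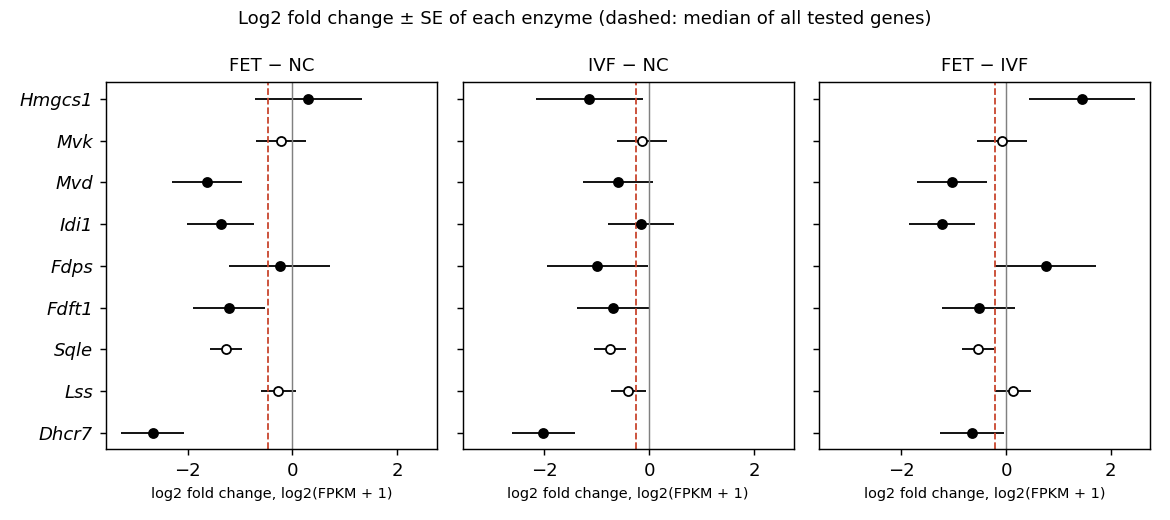
Log2 fold change on the log2(FPKM + 1) scale (horizontal axis) of each enzyme in the 3 comparisons, with the limma standard error as bars. Filled points were tested, open points come from the fit without a filter, and the dashed line is the median of all tested genes (-0.46, -0.25 and -0.20). Dhcr7 lies farthest to the left in both comparisons with NC.

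The shares of genes with no overlap between groups give the background. Of the 6 tested enzymes, Fdft1 and Dhcr7 were lower in all FET than in all NC mice, as were 17.1% of tested genes. Dhcr7 was lower in all IVF than in all NC mice, as were 5.46% of tested genes. None of the 6 was lower in all FET than in all IVF mice, as were 2.56%. After rescaling each library to its nuclear protein-coding FPKM, which moved the median of all genes in FET against NC from -0.46 to -0.06, Mvd, Fdft1 and Dhcr7 were lower in all FET than in all NC mice (background 11.5%). Fdps, Fdft1 and Dhcr7 were lower in all IVF than in all NC mice (background 11.3%), and none was lower in all FET than in all IVF mice (background 6.01%). On the scale per 1000000 Sqle had 11 to 11.9 in the NC mice, 1.18 to 10.7 in IVF and 0 to 0.574 in FET mice. Dhcr7 had 52.0 to 62.3 in NC, 0.940 to 27.3 in IVF and 0 to 5.40 in FET mice.

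**Figure D3:**
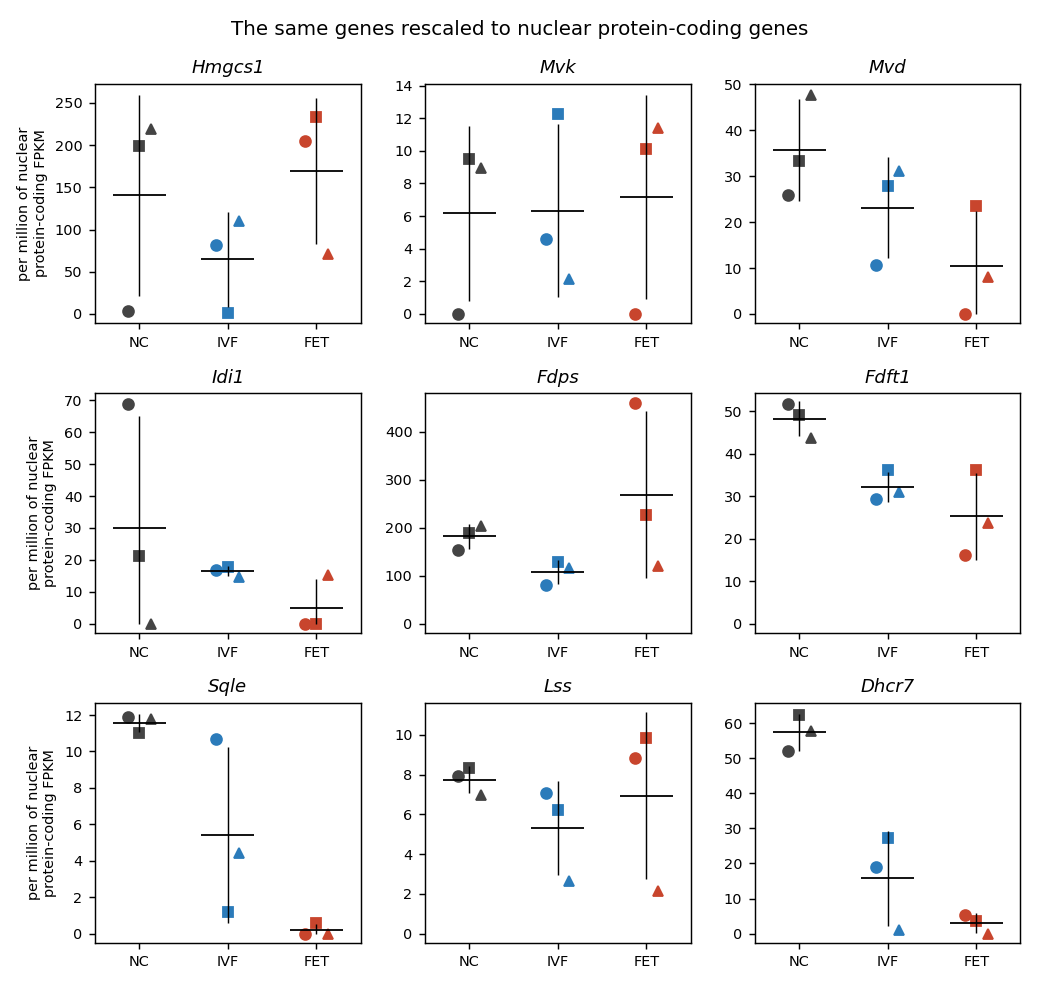
The same 9 enzymes per 1000000 of the nuclear protein-coding FPKM of each library (vertical axis), with mice, means and SDs drawn as in the plot of FPKM by mouse. Dhcr7 lies between 52.0 and 62.3 in the NC mice and at or below 5.40 in the FET mice.

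The make-up of the pathway was compared within each library. Hmgcs1 and Fdps together took 41.8%, 66.6% and 70.5% of the summed FPKM of the 9 enzymes in NC mice 1, 5 and 6. They took 62.3%, 50.1% and 72.4% in IVF mice 2, 3 and 4, and 95.7%, 84.5% and 76.04% in FET mice 2, 3 and 4. The NC and IVF shares overlapped, and the lowest FET share lay above the highest other share; this share was chosen after the values had been seen. Relative to Fdps in the same library, Dhcr7 reached 34.0%, 32.9% and 28.3% in NC mice, 23.7%, 21.3% and 0.805% in IVF mice and 1.17%, 1.64% and 0% in FET mice. Mvd reached 17.0% to 23.4% of Fdps in NC and 0% to 10.4% in FET mice, and Fdft1 21.4% to 33.8% and 3.49% to 19.6%. Sqle reached 5.78% to 7.77% in NC and 0% to 0.254% in FET mice. Of the 5 tested enzymes other than Fdps, Mvd, Fdft1 and Dhcr7 thus had lower ratios in all FET than in all NC mice, as did 14.5% of the other tested genes. With Sqle it was 4 of 8, where the background over all other detected genes was 9.41%. The other 4 ratios overlapped between NC and FET mice, with 3.42% to 5.18% and 1.76% to 4.37% for Lss, 2.60% to 108.0% and 44.6% to 103.0% for Hmgcs1, 0% to 5.01% and 0% to 9.49% for Mvk, and 0% to 44.9% and 0% to 12.7% for Idi1. A ratio within a library is independent of its scaling and shows unequal change, not which of the genes changed. FET mouse 2 had the highest Fdps of all mice and 4 enzymes at 0, and its library had the lowest estimated depth.

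**Figure D4:**
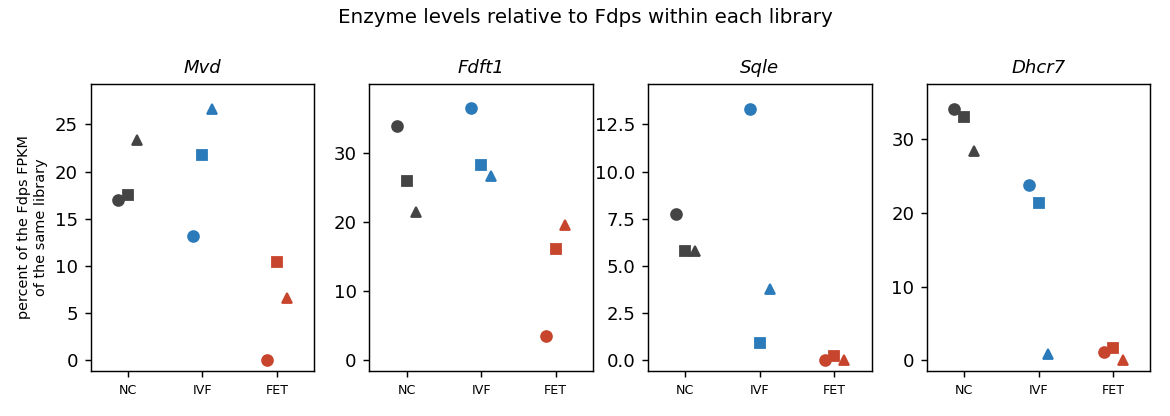
Level of the 4 enzymes whose ratios did not overlap between NC and FET mice, Mvd, Fdft1, Sqle and Dhcr7, as a percentage of the Fdps FPKM of the same library (vertical axis) in each mouse of the 3 groups. The NC mice lie at 28.3% to 34.0% for Dhcr7 and the FET mice at 0% to 1.64%.

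The other synthesis enzymes made up a list of 11. Of the 9 tested, 9 had a negative log2 fold change in FET against NC with a median of -1.48, 5 were lower at an unadjusted limma p under 0.05, and 0 passed the adjusted threshold. Over all tested genes 74.4% were negative and 10.1% lower at that level. After median-ratio scaling, quantile normalization and rescaling 8 of 9 were negative each time, with 7 lower at an unadjusted p under 0.05, as were 11.3%, 8.97% and 9.52% of all tested genes in turn. Nsdhl, a sterol dehydrogenase, had 4.40, 9.61 and 12.6 FPKM in NC and 1.41, 1.52 and 0 in FET mice (log2 fold change -2.33, limma adjusted p = 0.104). Pmvk, phosphomevalonate kinase, had 0.538, 4.60 and 3.62 FPKM in NC mice and is listed at 0 in all FET mice (limma adjusted p = 0.223). Msmo1, a methylsterol oxidase, had 2.17, 4.49 and 6.02 FPKM in NC and 0.955, 1.35 and 0 in FET mice (-1.58, limma adjusted p = 0.278). For IVF against NC all 9 were negative, as were 68.9% of all genes, with a median of -0.54. At an unadjusted limma p under 0.05, 0 were lower, where 2.86% of all genes were. Under the 3 other scalings 7 of 9 were negative with medians of -0.24, -0.29 and -0.30. At that level 0, 1 and 1 were lower, as were 3.38%, 4.50% and 3.85% of all genes. For FET against IVF all 9 were negative, as were 65.4% of all genes, with a median of -0.92 and 1 lower at that level (2.95% of genes). Under the 3 other scalings 9, 9 and 8 were negative (59%, 49.2% and 48.6% of genes). There 4, 3 and 3 were lower at that level, as were 461, 325 and 323 of the 6755 tested genes.

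Of the 8 genes of the isoprenoid branch 4 were tested. Their median in FET against NC was -0.10, which turned to between 0.20 and 0.46 under the other scalings. Of these 4, 0 had an unadjusted limma p under 0.05, where 10.1% of all tested genes were lower at that level. Under the 3 other scalings 0 were lower at that level, against 11.3%, 8.97% and 9.52% of all tested genes. Nus1, a subunit of dehydrodolichyl diphosphate synthase, had a value of -0.48, Fnta, a prenyltransferase subunit, 0.20, and Pggt1b, a subunit of another prenyltransferase, -0.17, which turned to 0.20 after rescaling. Among the sterol sensing genes 6 of 9 were tested, with 6 of 6 negative, a median of -1.09 and 0 past the adjusted threshold, against 74.4% negative and 0.237% called over all tested genes. Of these 6, Srebf1 alone was lower at an unadjusted limma p under 0.05, as were 10.1% of all tested genes. After rescaling to nuclear protein-coding genes 4 were negative, as were 53.4% of all tested genes, and the median was -0.60. Srebf1, the SREBP-1 gene, had 3.16, 33.2 and 22.5 FPKM in NC and 4.90, 2.98 and 1.75 in FET mice (-1.90, limma adjusted p = 0.334), and the value was -0.05 with NC mouse 1 as the only control. Nr1h2, the oxysterol receptor LXR beta, had a value of -1.36 (limma adjusted p = 0.450), which was -0.76 after rescaling. Insig2 had -1.17, and -0.76 after rescaling. Insig1 had -1.01, and -0.45 after rescaling or -0.22 without FET mouse 4. Scap had -0.32 and turned to 0.15 after rescaling. Srebf2 was under the testing level, with 0.606 to 1.88 FPKM in NC, 0.188 to 1.13 in IVF and 0.163 to 0.910 in FET mice. Of the 12 uptake, export and storage genes 9 were tested, 7 were negative (74.4% over all tested genes) with a median of -0.81, and 0 passed the adjusted threshold in limma, with 1 lower at an unadjusted p under 0.05, where 10.1% of all tested genes were. Under the 3 other scalings the median was -0.45, -0.35 and -0.36 and 0 were lower at that level, against 11.3%, 8.97% and 9.52% of all tested genes. Abcg5, a sterol exporter subunit, had a value of -1.27 (limma adjusted p = 0.508) and Abca1, a cholesterol efflux transporter, -1.03 (limma adjusted p = 0.520). Rescaled to nuclear protein-coding genes they were -0.72 and -0.65, and Abcg5 was -1.96 and -0.79 without NC mice 1 and 5 in turn. In IVF against NC 8 of the 9 tested genes of this list were negative (68.9% over all tested genes). At an unadjusted limma p under 0.05, 2 were lower (2.86%). It was also 2 under each other scaling (3.38%, 4.50% and 3.85%). In FET against IVF 5 were negative (65.4%), and 2 passed that level, 1 of them lower (2.95%).

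**Figure D5:**
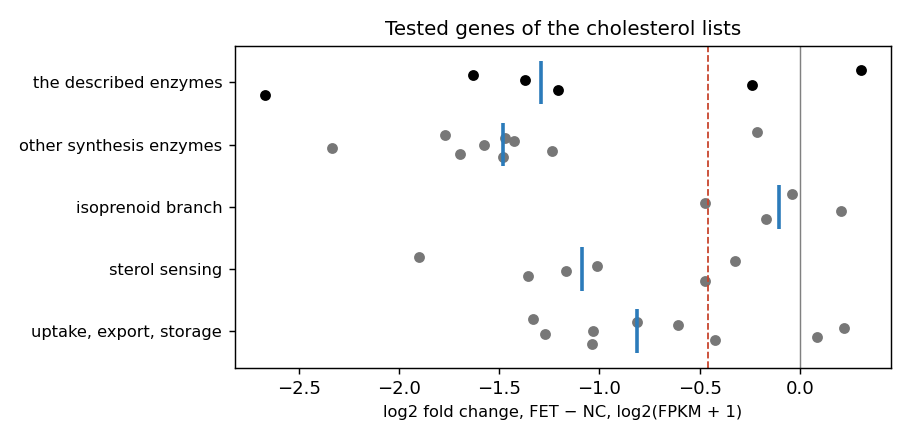
Log2 fold change of FET against NC on the log2(FPKM + 1) scale (horizontal axis) for each tested gene of 5 lists, with the list median as a blue line and the median of all tested genes (-0.46) dashed. The medians are -1.29 for the described enzymes, -1.48 for the other synthesis enzymes and -0.10 for the isoprenoid branch.

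The genes whose levels over the 9 mice were most like the mean standardized level of the 6 tested enzymes were C1s1 (Pearson r 0.987), Adh5 (0.984), Rheb (0.978), Apoh (0.976) and Tmem176a (0.974). Of 5731 protein-coding genes compared, 407 had a coefficient above 0.9 and the median was 0.685, so that a high value was common. The points share library and depth, and no p is given. Among the enzymes themselves Mvd and Fdft1 were most alike (r 0.96, n = 9 mice; 0.873 after rescaling), while Hmgcs1 and Idi1 had -0.454 and -0.732.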

How the data were processed

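Liver RNA of 9 mice was sequenced, and the authors deposited FPKM values (fragments per kilobase of gene and per 1000000 mapped) for 55335 genes. The submitters' processing notes name FastQC 0.11.5, STAR 2.5.3a, StringTie 1.3.1c and DESeq2 1.16.1 without a role; the build and annotation used by the authors are not given in the sources used here. Symbols and positions are those of GENCODE vM21 (GRCm38), matched for 55154 genes. FPKM are relative to all mapped fragments, so a library rich in non-coding RNA lowers every other gene, and values near 0 rest on few fragments. Depth was estimated from the spacing of low values, which is set by transcript length and depth (tolerance 2%); the estimate was tested on simulated data.

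Groups were taken from the sample labels. Genes with a mean of at least 1 FPKM (6755) were tested on log2(FPKM + 1) with limma 3.58.1 (R 4.3.3), in 1 model of 3 groups with a variance trend, two-sided, at a Benjamini-Hochberg adjusted p-value under 0.05. The fold changes understate the change of low genes. No count test was run because the values are FPKM. Alternatives were a pseudocount of 0.1, no filter, a filter at 10 FPKM, median-ratio, quantile and protein-coding scaling, only the groups compared, each mouse left out, NC mouse 1 alone and a block for the mouse number. Leaving out the libraries with the least protein-coding signal, and rescaling with no filter, were added after the data had been seen.

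Named genes were the 9 enzymes, any gene of 4 further lists past the threshold or else the 3 tested genes with the lowest p in FET against NC, the SREBP regulators, and the 5 genes most like the enzymes. The enzymes and lists were chosen with earlier results of these data known. Of the genes these rules give, 2 are not reported here.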

Additional observations from a re-analysis of the deposited data

How the results depend on the processing

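Of 15 alternatives for Dhcr7 in FET against NC, all kept the direction and 13 were not called, among them the fit with NC mouse 1 alone, which has a single control and takes its spread from the other groups, so that 0 enzymes were called there under each planned setting other than leaving out 1 mouse, without both libraries poorest in protein-coding signal (IVF mouse 2 and FET mouse 4), and with no filter after rescaling. Leaving out 1 mouse gave 0 to 1 enzymes called and 1 (without FET mouse 3) to 83 genes (without NC mouse 1; 57 without FET mouse 2) in FET against NC, where 16 were called with all mice. It gave 0 (without IVF mouse 3 or 4) to 24 genes (without NC mouse 1; 1 without IVF mouse 2) in IVF against NC, against 4, and 0 (without IVF mouse 4) to 10 genes (without IVF mouse 2; 2 and 3 without FET mice 3 and 4) in FET against IVF, against 6. The genes called in FET against NC, IVF against NC and FET against IVF were 0, 0 and 0 with no filter or only the groups compared, and 7, 0 and 3 without both poorest libraries. They were 5, 0 and 1 with no filter after rescaling. In FET against NC they were 26 with median-ratio scaling, 5 with a filter at 10 FPKM and 5 with NC mouse 1 alone. In IVF against NC they were 2 with that filter, 1 with NC mouse 1 alone, and 0 with a pseudocount of 0.1 or under each other scaling. The filter at 10 FPKM left Hmgcs1 and Fdps, and the median of the enzymes was then 0.03 in FET against NC and 1.10 in FET against IVF. Without IVF mouse 2 the median in IVF against NC was -0.20, the same value as without both poorest libraries, and -1.40 without IVF mouse 4.

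Some directions turned, and the cause was not tested. In FET against NC, Fdps was 0.22 with median-ratio scaling, 0.17 with quantile normalization, 0.35 after rescaling with or without the filter, 0.40 with NC mouse 1 alone and 0.59 without both poorest libraries. Pggt1b was 0.12, 0.29, 0.20, 0.34 and 0.02 under those settings in turn. Scap was 0.04 with median-ratio scaling, 0.02 with quantile normalization, 0.15 after rescaling and 0.18 without both poorest libraries, Nus1 was 0.05 without them, and Abcg5 was 0.12 with NC mouse 1 alone. In IVF against NC, Hmgcs1 was 1.87 with NC mouse 1 alone, Mvd 0.07 with it or without both poorest libraries, and Idi1 0.48 with a pseudocount of 0.1 and 0.22 without them. Leaving out 1 mouse moved FET against NC from -1.21 to 1.15 for Hmgcs1, -0.78 to 0.59 for Fdps, -0.90 to 0.05 for Nus1, -0.35 to 0.52 for Fnta, -0.42 to 0.02 for Pggt1b and -0.72 to 0.18 for Scap. It moved IVF against NC from -1.19 to 0.07 for Mvd, -0.96 to 0.48 for Idi1 and -2.66 to -0.08 for Hmgcs1. The same comparison ran from -1.60 to -0.23 for Fdps and -1.12 to -0.16 for Fdft1. FET against IVF ran from -0.01 to 1.59 for Fdps and 0.38 to 2.65 for Hmgcs1. It ran from -1.70 to -0.44 for Mvd, -1.59 to -0.89 for Idi1 and -1.05 to -0.08 for Fdft1.

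IVF and FET mice share the numbers 2, 3 and 4, but the deviations of mice with the same number correlated at -0.131, 0.0215 and -0.255, so the numbers were not taken to pair the mice. With a replicate block, 2 genes and 0 enzymes were called in FET against IVF. In the FET libraries 1 fragment equals 0.0985 to 0.143 FPKM of Hmgcs1, which limits what low values can show.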
